A study of Mus musculus with 11 samples.

Results

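The regions described here are stretches of open chromatin that passed into a list of the strongest ATAC-seq peaks of wild-type mouse keratinocytes in a single condition, either at a skin wound or in unwounded skin. ATAC-seq marks open chromatin by the sites at which a transposase can enter the DNA, and the deposited lists give, for each peak, its position on the mm10 genome, its fold enrichment of reads over the local background and a −log10 p-value. The list of the wounded WT library holds 36872 regions and that of the unwounded WT library 10769. From each list the 10769 regions with the largest −log10 p were taken, which is the length of the shorter list. A region with no base in common with the strongest regions of the other condition is called wounded-only or unwounded-only, and the remaining regions are called shared. There were 3510 wounded-only regions, 32.6% of the 10769, and 3475 unwounded-only regions, 32.3%. These 6985 regions stand among 99479 in the 4 lists of the series.

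Wild-type C57BL/6J mice carried Krt14-Cre, which acts in keratinocytes of the basal layer, and intact *Grhl3*. Littermates labelled *Grhl3*-cKO carried Krt14-Cre with both copies of *Grhl3* floxed. Mice of both sexes were 8 weeks old, and full-thickness punch wounds of 4 mm were made in back skin. On day 3 the skin bordering the wound and unwounded skin away from it were collected, and cells positive for integrin α6 (CD49f) and negative for CD45, CD31 and TER119 were sorted. Each ATAC-seq library pooled 4 wounds, or the matching unwounded skin, from 2 mice. With 1 pooled library for each condition, differences between the lists have no replicate check, and the intervals below are Wilson 95% intervals that cover counting error only. The files give no ATAC-seq read depth, and the study's methods give only a minimum number of reads for all samples, not the depth of each. RNA-seq of the same cell type had 2 WT unwounded and 2 WT wounded libraries, with 15418631 to 16807451 counts on genes.

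After an injury, keratinocytes next to the wound flatten, loosen their contacts and move over the wound bed, while those behind them divide. Transcription factors of the AP-1 family, dimers of FOS and JUN proteins, are switched on early by injury and bind many enhancers of keratinocytes. Grainyhead-like factors such as GRHL3 bind enhancers of epidermal genes and take part in the formation of the skin barrier and in wound closure. Promoters of widely expressed genes tend to stay open in most states of a cell, while enhancers away from promoters differ more between cell types and states.

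The rule set a much higher bar for the wounded library than for the unwounded one. It kept 29.2% of the wounded list and left out 26103 regions. The last wounded region inside the limit had a −log10 p of 7.56401 and the first outside 7.56383, whereas the whole unwounded list was used, down to a −log10 p of 3.79. Over their full lists the wounded regions covered 18009879 bases with a median width of 421 bases, and the unwounded regions 4425198 bases with a median width of 360 bases. Among the strongest 10769, the wounded regions covered 6688952 bases. Of the wounded-only regions, 836 had a −log10 p under 8 and so lay near the limit, and 775, or 22.1%, had one of 10 or more. Among shared regions of the wounded list, 59.7% reached 10.

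The names of the groups therefore do not carry the same meaning in both directions. Wounded-only regions have no listed counterpart in unwounded WT skin, since the whole unwounded list was compared. Of the 3475 unwounded-only regions, 3156, or 90.8% (interval 89.8 to 91.7%), overlapped a region of the full wounded list that ranked below the limit of 10769, at a median rank of 16367.5. In 2149 of those 3156 the fold enrichment was higher in the wounded library than in the unwounded one, with medians of 4.14 and 3.80, and in 2239 the −log10 p was higher there, with medians of 6.29 and 5.29. Only 319 unwounded-only regions met no region of the full wounded list. Fold enrichment was higher in the wounded library in 91.2% of the 7295 overlapping pairs of shared regions, with a median ratio of 1.26. The rule let wounded members of these pairs in only from a −log10 p of 7.56, and unwounded members from 3.79. This share therefore is no measure apart from the rule, and no difference between the conditions is drawn from it.

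Wounded-only regions were of intermediate width and lay far from gene starts. Their median width was 414 bases, against 297 for unwounded-only regions and 660 for shared regions as listed in the wounded library. Their median fold enrichment was 5.42, that of unwounded-only regions 3.79. The centre of a wounded-only region lay a median of 11040.5 bases from the nearest gene start, compared with 1834 bases for unwounded-only and 364 bases for shared regions. A promoter, taken as the 1000 bases on either side of an annotated start, was met by 806 wounded-only regions, 23.0% (21.6 to 24.4%). It was met by 1644 unwounded-only regions, 47.3% (45.7 to 49.0%), and by 54.6% of shared regions. Introns outside promoters held 37.0% of wounded-only and 25.4% of unwounded-only regions. Intergenic sequence held 35.6% and 24.2%, and exons 4.47% and 3.11%.

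The 319 regions that met nothing in the full wounded list were unlike the other unwounded-only regions. Promoters made up 19.1% of them (15.2 to 23.8%), against 50.2% of the 3156 with a counterpart in the full wounded list. In 113 of the 319, or 35.4%, most bases of the 300 at the centre were masked as repeats in the reference genome. The same held for 3.68% of the 3156, for 2.56% of wounded-only regions and for 2.19% of shared regions. Reads from repeats can be placed at more than 1 copy, and their part in the 319 was not tested.

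The DNA of the 2 groups differed in base composition and in short sequence motifs, whose letters the choice of regions had not used. The choice did use peak strength, and the median −log10 p was 8.68 in wounded-only and 5.27 in unwounded-only regions. The part of peak strength in the shares below was not tested. Motifs were sought on both strands in the 300 bases at the centre of each region. The median GC content was 49.3% in wounded-only, 54.7% in unwounded-only and 55.7% in shared windows. The AP-1 motif TGANTCA was found in 1363 wounded-only windows, 38.8% (37.2 to 40.5%). It was found in 758 unwounded-only windows, 21.8% (20.5 to 23.2%), in 25.1% of shared windows and in 27.0% of windows of all 47641 regions of the full WT lists. Of 32817 RefSeq promoters of mouse genes, also 300 bases long, 7.81% held it. Windows ran past the ends of the region in 19.2% of wounded-only, 50.8% of unwounded-only and 1.89% of shared regions. When only the bases inside the region counted, the AP-1 shares were 38.2%, 19.9% and 25.1%. With the full lists compared, the AP-1 motif was in 29.4% of wounded-only and 20.1% of unwounded-only windows.

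Promoters hold few AP-1 motifs, so the shares were also taken by place. Outside promoters the motif stood in 45.8% of 2704 wounded-only windows, in 33.7% of 1831 unwounded-only windows and in 47.3% of 3295 shared windows. Away from promoters, then, the wounded-only share was near the shared one, and the unwounded-only share was the lowest of the 3. At promoters the share was 15.6% for wounded-only, 8.58% for unwounded-only and 6.61% for shared regions.

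The GC-rich motif GGGCGG, bound by SP and KLF factors, was least frequent in wounded-only windows. It was present in 19.3% of wounded-only, 38.0% of unwounded-only and 42.3% of shared windows, and in 35.6% of RefSeq promoters. At promoters the shares were 54.2%, 66.4% and 68.5%, and outside promoters 8.91%, 12.5% and 10.8%, lowest for wounded-only regions in both places. The C/EBP motif TTGCNNAA stood in 15.2% of wounded-only windows and 9.93% of unwounded-only windows, the RUNX motif TGTGGTT in 6.90% and 4.32%, and the TEAD motif GGAATG in 19.2% and 15.8%. Outside promoters the shares in wounded-only, unwounded-only and shared windows were 17.1%, 12.8% and 16.4% for C/EBP, 7.54%, 5.57% and 7.47% for RUNX, and 21.3% (19.8 to 22.9%), 19.3% (17.5 to 21.2%) and 19.9% for TEAD. At promoters they were 8.68%, 6.69% and 6.21%, then 4.71%, 2.92% and 2.85%, and for TEAD 12.03%, 11.9% and 10.5%. C/EBP and RUNX factors act in keratinocyte differentiation and in the hair follicle, and TEAD factors carry the output of the Hippo pathway. The core of the site of Grainyhead-like factors, AACNNGTT, was in 7.78% (6.94 to 8.71%) of wounded-only, 5.24% (4.55 to 6.03%) of unwounded-only and 5.46% of shared windows. Outside promoters its shares were 8.58%, 7.26% and 8.65%, and at promoters 5.09%, 2.98% and 2.80%. Motifs for ETS factors (GGAAGT, 20.6% and 21.7%), NF-κB (GGGNNTTCC, 5.84% and 6.36%) and CREB (TGACGTCA, 1.34% and 1.53%) had nearly equal shares in wounded-only and unwounded-only windows. By place the CREB shares were 3.47% and 2.86% at promoters and 0.70% and 0.33% outside them. In the same order they were 26.05%, 22.69%, 19.01% and 20.81% for ETS, and 7.32%, 6.81%, 5.40% and 5.95% for NF-κB. The E-box CAGCTG was in 19.1% and 16.8%.

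The 10 strongest wounded-only regions had −log10 p of 17.2 to 23.1 and fold enrichments of 6.05 to 8.98. At their centres 6 of the 10 held the AP-1 motif, 2 lay at promoters, and all 10 were also listed in both libraries labelled *Grhl3*-cKO. The strongest, chr4:88782586-88782866, lay at the start of *Ifnz*, a gene of the interferon family with no count in any RNA-seq library. Next came chr14:98453617-98454012, an intergenic region 284272 bases from the start of *Dach1*, which was assigned to no gene. Others lay in a 3′ UTR of *Azi2*, a gene of an adaptor in NF-κB and interferon signalling, and 42270 bases from the start of *Gem*, which encodes a small GTPase acting on the cytoskeleton. Introns of *Fhod3*, which encodes a formin that assembles actin, of *Rassf3*, of *Tmem200a* and of *Lpin2*, whose product takes part in lipid synthesis, held 4 more, each with the AP-1 motif. The region in *Rassf3*, chr10:121520986-121521277, had the highest fold enrichment of the wounded-only regions, 8.98. The remaining ones, chr2:11339054-11339603 and chr16:55469034-55469364, had no protein-coding gene start within 100000 bases.

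The 10 strongest unwounded-only regions had −log10 p of 12.1 to 24.0. None held the AP-1 motif, none lay at a promoter, and 6 held none of the motifs. They belonged to *Ccr1*, a chemokine receptor gene of leukocytes, *Bmpr1b*, a BMP receptor gene, *BC035947*, *Lmbrd1*, *Fam107a*, *2210408I21Rik*, *Pcnx2*, *Gm3460* and *Pak3*, with 1 region, chr3:8246239-8246551, assigned to no gene. All 10 were listed in both libraries labelled *Grhl3*-cKO and 9 in the full wounded WT list. The strongest, chr9:123924391-123924666 near *Ccr1*, had a fold enrichment of 9.31 and a −log10 p of 24.0, while the wounded list has a wider region there, chr9:123924144-123925512, with 3.78 and 6.32. *Ccr1* had no counts in any of the libraries. Only the region in an intron of *Lmbrd1*, chr1:24684035-24684293, was absent from the wounded WT list.

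A protein-coding gene was given a region when the region met its body or the 5000 bases upstream of it, or else when its start was the nearest within 100000 bases. By this rule 2561 of 21924 protein-coding genes, 11.7%, had a wounded-only region and 2972, 13.6%, an unwounded-only region, and 654 genes had both. These genes were long: their median length was 43351 bases for wounded-only and 34105 for unwounded-only regions, against 17402 over all genes. At promoters alone, 738 genes had a wounded-only and 1636 an unwounded-only region. No gene could be assigned to 461 wounded-only and 312 unwounded-only regions.

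The most wounded-only regions fell in *Macrod2* (8), *Cobll1* (7), *Fgfr2* (7), *Pde4d* (7) and *Bach2* (6), the last level with *Cmss1* (6). *Fgfr2* encodes a receptor for fibroblast growth factors that keratinocytes use, *Pde4d* a phosphodiesterase that breaks down cAMP, and *Bach2* a repressor that binds AP-1-like sites. *Cobll1* is the shortest of the 5, with 151065 bases, and held 2 unwounded-only regions and 1 shared region beside its 7. *Fgfr2* is annotated with a model of 2960900 bases and held 8 unwounded-only regions as well. The most unwounded-only regions fell in *Gm20388* (18), a model of 4434882 bases that spans other genes, *C130026I21Rik* (11), *Gm17019* (10), *Fgfr2* (8) and *4930572O03Rik* (7). *C130026I21Rik*, *Gm17019* and *4930572O03Rik* had no wounded-only region and no counts in the RNA-seq libraries. These genes lie in the stretches of close unwounded-only regions described under other observations, where the part of sequence present in several copies was not tested.

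One of the gene lists holds 15 genes, which the text of the study names except for *Nrg1*, *Flt1*, *Tmsb10* and *Ptk2b*, which were not found in it. Of the 15, 4 had wounded-only regions, *Fscn1*, *Cdh1*, *Nrg1* and *Ptk2b*, and 6 had unwounded-only regions, *Krt17*, *Pdpn*, *Nrg1*, *Flt1*, *Tmsb10* and *Grhl3*. *Fscn1* encodes fascin, which bundles actin in the protrusions of moving cells. Its region, chr5:142958681-142958931, lay 1537 bases from the start of the gene, with a fold enrichment of 4.81 and a −log10 p of 7.60. It ranked 10644 in the wounded list, close to the limit of 10769, and was listed in the wounded but not in the unwounded library labelled *Grhl3*-cKO. *Cdh1* encodes E-cadherin, the main adhesion protein between epithelial cells, and its region in an intron, chr8:106608404-106608752, had a −log10 p of 8.81. *Ptk2b*, the gene of a kinase of focal adhesions, had chr14:66266139-66266706 in an intron with 8.55.

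*Nrg1*, the gene of the ERBB ligand neuregulin, had regions of both kinds side by side at an internal start. The wounded-only region chr8:32009349-32009880 had a fold enrichment of 5.15 and a −log10 p of 9.83. An unwounded-only region, chr8:32008521-32008940, lay 408 bases from it, with 3.47 and 4.57, and met no region of the full wounded list. A stronger unwounded-only region of *Nrg1*, chr8:32221359-32221556 in an intron, had 4.21 and 5.93. There the wounded list has a region at rank 13953 with a −log10 p of 6.76. *Grhl3* itself had an unwounded-only region 49673 bases from its start, chr4:135623154-135623451, with the AP-1 motif and a −log10 p of 5.67. It was absent from the full wounded list and from the wounded library labelled *Grhl3*-cKO.

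*Krt17*, a keratin gene raised in injured epidermis, had its unwounded-only region at chr11:100255665-100255971, past the 3′ end of the gene. There the wounded list has a wider region, chr11:100254504-100256175, with a fold enrichment of 3.92 against 3.63 in the unwounded library. That region ranked 15157 and so fell outside the limit. The regions of *Pdpn*, which encodes podoplanin, a membrane protein of migrating keratinocytes, of *Flt1*, a VEGF receptor gene, and of *Tmsb10*, whose product binds actin monomers, also met wounded regions outside the limit, at ranks 34537, 24346 and 25769. The −log10 p was higher in the wounded library for *Flt1* (5.13 against 4.58) and *Tmsb10* (4.96 against 4.35), and lower for *Pdpn* (3.94 against 4.99). The rest of the 15, *Krt1*, *Krt14*, *Krt16*, *Krt6b*, *Itga5* and *Arhgef19*, had neither kind. The study's text names other genes too, among them *Krt5*, *Krt10*, *Col17a1* and *Cldn1*, with neither kind, and *Sox4*, with both.

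Sequence at 6 of these regions shows what the motif counts rest on. They were chosen as regions of genes of the list of 15 or as the strongest of a gene list in their direction, each with an AP-1 or a Grainyhead-like match in its window. Each line gives 300 bases around the centre of the region, which can run past its ends, from the plus strand of GRCm38.p6, the assembly known as mm10. Capitals mark matches to TGANTCA or AACNNGTT on either strand. The windows are chr5:142958656-142958955 for *Fscn1*, chr1:130886489-130886788 for *Il24*, chr6:42340067-42340366 for *Zyx* and chr9:63745946-63746245 for *Smad3*, all wounded-only, and chr11:100255668-100255967 for *Krt17* and chr1:150197690-150197989 for *Ptgs2*, both unwounded-only.
Fscn1: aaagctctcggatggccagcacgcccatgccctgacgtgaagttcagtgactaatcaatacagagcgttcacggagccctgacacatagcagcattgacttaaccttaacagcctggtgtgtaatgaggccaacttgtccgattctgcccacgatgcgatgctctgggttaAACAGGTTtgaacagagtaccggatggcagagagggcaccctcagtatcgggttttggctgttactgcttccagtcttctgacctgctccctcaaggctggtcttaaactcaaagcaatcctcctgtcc
Il24: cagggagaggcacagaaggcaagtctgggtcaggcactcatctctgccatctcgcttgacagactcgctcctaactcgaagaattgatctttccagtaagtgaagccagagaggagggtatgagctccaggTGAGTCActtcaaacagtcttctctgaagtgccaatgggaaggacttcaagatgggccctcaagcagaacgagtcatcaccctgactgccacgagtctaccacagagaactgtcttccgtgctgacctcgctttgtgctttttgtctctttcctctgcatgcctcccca
Zyx: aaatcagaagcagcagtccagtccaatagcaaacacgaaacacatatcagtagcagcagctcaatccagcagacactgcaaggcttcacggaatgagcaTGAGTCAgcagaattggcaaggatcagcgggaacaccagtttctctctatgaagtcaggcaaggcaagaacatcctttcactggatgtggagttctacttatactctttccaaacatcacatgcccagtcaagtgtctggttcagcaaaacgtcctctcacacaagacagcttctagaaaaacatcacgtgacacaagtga
Smad3: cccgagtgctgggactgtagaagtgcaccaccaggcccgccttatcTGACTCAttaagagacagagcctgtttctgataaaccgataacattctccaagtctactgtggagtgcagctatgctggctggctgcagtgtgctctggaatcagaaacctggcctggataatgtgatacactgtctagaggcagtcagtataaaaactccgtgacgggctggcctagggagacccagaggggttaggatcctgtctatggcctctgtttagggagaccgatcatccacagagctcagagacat
Krt17: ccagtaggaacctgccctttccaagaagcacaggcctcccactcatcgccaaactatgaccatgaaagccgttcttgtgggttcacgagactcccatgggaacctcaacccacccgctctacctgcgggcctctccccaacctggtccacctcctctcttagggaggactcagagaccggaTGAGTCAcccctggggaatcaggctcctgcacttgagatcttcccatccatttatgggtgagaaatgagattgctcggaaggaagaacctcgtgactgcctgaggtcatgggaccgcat
Ptgs2: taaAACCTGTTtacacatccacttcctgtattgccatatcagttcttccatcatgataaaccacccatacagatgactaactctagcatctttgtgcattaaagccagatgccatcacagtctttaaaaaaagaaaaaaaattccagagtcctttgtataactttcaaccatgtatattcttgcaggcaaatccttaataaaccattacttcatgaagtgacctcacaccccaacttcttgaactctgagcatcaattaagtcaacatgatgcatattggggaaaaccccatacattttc
The *Fscn1* and *Ptgs2* windows each hold a single match to the Grainyhead-like core and none to AP-1. That of *Ptgs2*, chr1:150197693-150197700, lies outside the listed region, which begins at 150197737. In the *Il24*, *Zyx*, *Smad3* and *Krt17* windows there is a single AP-1 match. A match is a run of letters and does not show that a factor was bound.

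Among AP-1 and other early-response factor genes, 12 of 14 promoters were listed in the full wounded library and 7 in the unwounded one. Over all protein-coding genes 48.5% had a promoter in the full wounded list and 26.3% in the shorter unwounded list, and of the 12 housekeeping genes 10 and 7 did. The counts of list genes with wounded-only and unwounded-only regions that follow stand beside 11.7% and 13.6% over all protein-coding genes. Wounded-only regions were found for *Fos*, *Jun* and *Myc*, and unwounded-only regions for *Fosl2*, *Jun*, *Junb*, *Jund*, *Atf3*, *Egr1* and *Myc*. The strongest wounded-only region, chr15:62043766-62044202, lay 56562 bases beyond the start of *Myc*, a gene that drives growth, and held an AP-1 motif. It had a fold enrichment of 6.57 and a −log10 p of 11.8. The strongest unwounded-only region was a promoter of the stress-response gene *Atf3*, with 4.20 and 7.17, where the wounded list has a region with 3.52.

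Of 19 transcription factor genes of the epidermis, 10 had unwounded-only regions and 6 had wounded-only ones. *Tfap2c*, whose product acts in epidermal differentiation, led the wounded-only regions with chr2:172643880-172644700, 93299 bases from its start, at a −log10 p of 10.8. *Sox4* led the unwounded-only regions with chr13:29014505-29014733 at 9.25, which held an AP-1 motif. *Klf4*, *Prdm1*, *Ehf* and *Maf* also had wounded-only regions, and those with unwounded-only regions included *Grhl2*, *Cebpa*, *Gata3*, *Tfap2a*, *Prdm1* and *Elf3*. *Trp63*, the master regulator of the basal layer, had neither.

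For cell migration and the actin cytoskeleton, 3 of 22 genes had a wounded-only region, *Fscn1*, *Zyx* and *Ezr*, and 8 an unwounded-only one. The zyxin gene *Zyx*, whose product sits on stress fibres at adhesions, had chr6:42339988-42340446, with a fold enrichment of 5.94 and a −log10 p of 10.1. Genes with unwounded-only regions included *Pdpn*, *Actn1*, *Actn4*, *Msn*, *Tmsb10*, *Rhoa* and *Arpc2*. The strongest region of the list in that direction, chr9:108305977-108306398, covered the start shared by *Rhoa*, a GTPase gene, and *Tcta*. It had a fold enrichment of 4.32 in the unwounded list and 3.97 in the wounded list.

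Junction genes had more wounded-only than unwounded-only regions, 13 and 5, in 7 and 4 of 20 genes. Those with wounded-only regions included genes of cadherins and partners (*Cdh1*, *Cdh3*, *Ctnnd1*), of desmosomal cadherins (*Dsg3*, *Dsc3*) and of the tight-junction protein occludin (*Ocln*). The strongest, chr18:20489622-20489869, lay 20528 bases from *Dsg3*, with a fold enrichment of 6.44 and a −log10 p of 11.4. Genes of the cornified envelope and lipid barrier, which mark the last steps of differentiation, had 11 wounded-only regions in 6 of 16 genes and 4 unwounded-only regions in 3. Here *Abca12*, the gene of a lipid transporter needed for the barrier, led with chr1:71370241-71370738 at 6.64 and 11.9. *Ivl*, *Tgm5*, *Cers3*, *Casp14* and *Cdsn* were the others with wounded-only regions. *Spink5*, the gene of a protease inhibitor that limits shedding, led the unwounded-only regions.

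Integrin and basement membrane genes had 6 wounded-only regions in 4 of 17 genes, *Itga2*, *Itgav*, *Lama3* and *Col4a2*, and 9 unwounded-only regions in 7. *Col4a2*, which encodes a chain of type IV collagen, had chr8:11372087-11372522 with an AP-1 motif and a −log10 p of 12.4. *Lamb3*, a chain of laminin-332, led the unwounded-only regions with 7.24. Among 15 genes of matrix proteases and the plasminogen system only *Plat*, which encodes tissue plasminogen activator, had a wounded-only region, chr8:22759079-22759333, in an intron 1459 bases from a start. Its promoter, chr8:22757274-22757696, was also the strongest unwounded-only region of that list. *Mmp14*, *Adam12* and *Plau* had unwounded-only regions too.

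EGF and TGF-β signalling had wounded-only regions in 10 of 19 genes and unwounded-only regions in 5, beside the 11.7% and 13.6% over all genes. They were at genes of receptors (*Egfr*, *Erbb3*, *Tgfbr2*, *Acvr1b*), of ligands (*Hbegf*, *Ereg*, *Nrg1*) and of signal transducers and their regulators (*Smad2*, *Smad3*, *Pmepa1*). *Smad3*, the gene of a transcription factor activated by TGF-β receptors, had chr9:63745890-63746302 in an intron, with a fold enrichment of 5.87 and a −log10 p of 10.1. *Egfr*, *Nrg1*, *Tgfb2*, *Smad3* and *Smad7* had unwounded-only regions, that of the ligand gene *Tgfb2* at its promoter being the strongest with 7.03.

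In the list of inflammation and antimicrobial defence, 7 of 20 genes had wounded-only regions, *Il1a*, *Il24*, *Il33*, *Nfkbia*, *Defb4*, *Stat3* and *Ptgs2*, and 6 had unwounded-only ones. At the promoter of *Il24*, a cytokine gene of wound-edge keratinocytes, lay chr1:130886448-130886830, with a fold enrichment of 5.57 and a −log10 p of 8.87. This region was listed in the unwounded but not in the wounded library labelled *Grhl3*-cKO. *Ptgs2*, the gene of the prostaglandin enzyme COX-2, led the unwounded-only regions with 7.49, at chr1:150197737-150197943. Hippo pathway genes had 1 wounded-only region, in the YAP relative *Wwtr1*, and 7 unwounded-only regions in *Yap1*, *Tead1*, *Tead3*, *Amotl2* and *Ajuba*. The *Wwtr1* region, chr3:57555619-57555879, had an AP-1 motif and was in neither library labelled *Grhl3*-cKO.

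Housekeeping genes, included for reference, had wounded-only regions in 3 of 12 and unwounded-only regions in 5 of 12. *Ywhaz* led in both directions, with a wounded-only region 90429 bases from its start and an unwounded-only region close to it. The stress keratins *Krt6a*, *Krt6b* and *Krt16* had neither kind. Over the lists of cell types and processes, 15 lists had a wounded-only and 17 an unwounded-only region. The strongest lay at a promoter in 1 of the 15 and in 11 of the 17, and held an AP-1 motif in 11 of the 15 and in 5 of the 17. Over all wounded-only and unwounded-only regions, 23.0% and 47.3% met a promoter, and 38.8% and 21.8% held the motif.

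The labelled cell type was set beside marker genes. Over all protein-coding genes, 48.5% had a promoter in the full wounded list and 26.3% in the unwounded list. Of 8 basal keratinocyte markers, the promoters of *Krt14*, *Itga6* and *Dst* were in the full wounded list and that of *Dst* in the unwounded list. Among 8 suprabasal markers the wounded list had the promoters of *Krtdap*, *Sbsn*, *Dsg1a* and *Dsc1* and the unwounded list that of *Sbsn*. For leukocytes *Ikzf1* alone, and for fibroblasts *Pdgfra* alone, had a listed promoter, both in the wounded library, and neither list had a wounded-only or unwounded-only region. Endothelial markers had the promoters of *Kdr* and *Tek* in the wounded list and that of *Kdr* in the unwounded one, a wounded-only region in *Erg* and unwounded-only regions in *Kdr* and *Flt1*. Melanocyte markers, whose cells share the epidermis, had wounded-only regions at *Dct* and *Tyrp1* and unwounded-only ones at *Dct* and *Pmel*. Their listed promoters were those of *Mitf* and *Dct* in the wounded list and of *Mitf* in the unwounded one. Hair follicle markers had wounded-only regions at *Sox9*, *Lhx2* and *Cd34* and unwounded-only ones at *Sox9*, *Lgr6* and *Cd34*. The promoters of *Sox9*, *Lhx2* and *Lgr5* were in the wounded list and that of *Sox9* in the unwounded one. Basal *Dst* had both kinds, and suprabasal *Sbsn* an unwounded-only one. The region of *Tyrp1*, chr4:80864462-80864917, was the strongest of these, with a fold enrichment of 7.56 and a −log10 p of 14.5.

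The libraries labelled *Grhl3*-cKO had not been used to choose the regions. Of wounded-only regions 3078, or 87.7% (86.6 to 88.7%), overlapped a region of the unwounded library labelled *Grhl3*-cKO, and 2629, or 74.9% (73.4 to 76.3%), one of the wounded library so labelled. Unwounded-only regions gave nearly the same shares, 87.7% and 74.2%. In both directions the larger share was in the unwounded library, whose list is longer, with 29364 regions against 22474. When these lists were limited to their strongest 10769 regions, the shares were 41.9% and 42.8% for wounded-only regions and 32.8% and 30.7% for unwounded-only regions. Shared regions were found in 85.9% and 82.8%. At equal list lengths, then, wounded-only regions of WT were listed in nearly equal shares in the unwounded and the wounded library of the other label. Of the 3510 wounded-only regions 285 and of the 3475 unwounded-only regions 309 were in neither list, and 171 of these 309 belonged to the 319 with no wounded WT counterpart. In RNA-seq, unwounded WT libraries had 1893 and 1398 counts of *Grhl3* and wounded WT libraries 1831 and 1388. Those with the *Grhl3*-cKO label had 1029 when unwounded, and 1765 and 1491 when wounded. These counts sum over the gene and do not show which exons are left, so they do not check the label.

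RNA-seq was a measure the regions had not been chosen on. Across 14045 genes tested with edgeR, 446, or 3.18%, were higher and 234, or 1.67%, lower in wounded WT keratinocytes at an unadjusted P under 0.05. At an adjusted p under 0.05 there were 4, or 0.0285%, namely *Mmp9*, *Xist*, *Pmepa1* and *Cald1*. This small count depended on single libraries and on the method: it was 29 without WT wounded replicate 1, 8 without WT wounded replicate 2, 2 without WT unwounded replicate 1 and 0 without WT unwounded replicate 2, where 441 genes were higher and 179 lower at an unadjusted P under 0.05 in edgeR. Among the 4, leaving out 1 library brought the adjusted p above 0.05 for *Mmp9* without WT unwounded replicate 2 (0.064), for *Xist* without WT unwounded replicate 1 (0.0765) or 2 (0.135), and for *Cald1* without WT unwounded replicate 1 (0.221) or 2 (0.064) or WT wounded replicate 2 (0.111). *Pmepa1* too exceeded 0.05 without some of these libraries, as given below. *Xist* was also lost with a replicate block in edgeR (adjusted p 0.552), where *Mmp9*, *Pmepa1* and *Cald1* passed. For the count over all genes, DESeq2 gave 24, a replicate block 183 and no filter on low counts 96. With at least 10 counts in every library, and with only the 4 WT libraries, edgeR gave 0, with 335 and 384 genes higher and 199 and 215 lower at an unadjusted P under 0.05. Of 2124 tested genes with wounded-only regions, 101 were higher and 47 lower, or 4.76% (3.93 to 5.75%) and 2.21%. Of 2521 with unwounded-only regions, 92 were higher and 49 lower, or 3.65% (2.99 to 4.46%) and 1.94%. Genes of shared regions had 2.98% higher and 1.53% lower. The median log2 fold change was 0.04 for genes of wounded-only regions, 0.01 for those of unwounded-only regions and 0.00 over all genes tested.

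Genes with regions of both kinds had the largest share called higher, 39 of 581 or 6.71% (4.95 to 9.05%), and 15 of them, or 2.58%, were lower. Of 1543 tested genes with wounded-only regions and no unwounded-only one, 62, or 4.02% (3.15 to 5.12%), were higher. In the same set 32, or 2.07%, were lower. The intervals count genes as independent and leave out the spread between libraries. They therefore do not test a difference from the 3.18% over all genes. For unwounded-only regions alone, 53 of 1940, or 2.73%, were higher and 34, or 1.75%, lower. Median expression was greater for genes of wounded-only regions than over all genes, with a mean log2 CPM (counts scaled to TMM-normalized library size) of 4.81 against 4.13 over all genes, and 5.25 for genes of unwounded-only regions, and the part of expression in the counts was not tested. With the region at the promoter, 22 of 657 genes were higher for wounded-only regions, or 3.35%, and 44 of 1510 for unwounded-only regions, or 2.91%, both close to the background of 3.18%. Leaving out WT wounded replicate 1 raised the 47 to 75 while the lower genes over all those tested went from 234 to 378. Leaving out WT unwounded replicate 2 lowered the 49 to 31 and the 234 to 179. With a replicate block 201 genes, or 10.1%, were higher and 100, or 5.01%, lower for wounded-only regions, and 183, or 7.54%, and 110, or 4.53%, for unwounded-only regions. Over all 12674 genes of that fit 772, or 6.09%, were higher and 501, or 3.95%, lower.

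A single gene of a wounded-only region passed the adjusted threshold in edgeR with all libraries. *Pmepa1*, whose product restrains TGF-β signalling and is induced by it, had 41.4 and 45.5 CPM in unwounded WT libraries. In wounded WT libraries it had 98.1 and 130.6 CPM. The 2 groups did not overlap. How many of all genes tested separate in this way was not counted, here or for the genes below. The log2 fold change of *Pmepa1* was 1.40 with an adjusted p of 0.0126 in edgeR. Its wounded-only region, chr2:173276350-173276725, lay over the start of the gene with a −log10 p of 8.31. Over all alternatives the adjusted p lay between 1.3e-09 and 0.303. It exceeded 0.05 when only the 4 WT libraries were fitted (0.303), when every library had to hold 10 counts (0.0694), and without WT unwounded replicate 1 (0.195), WT unwounded replicate 2 (0.0908) or WT wounded replicate 2 (0.0629). The count of 1 gene near wounded-only regions also changed: it was 10 without WT wounded replicate 1, and 1 without WT unwounded replicate 1, where the gene was *Limch1* and not *Pmepa1*. DESeq2 gave 5, *Pmepa1*, *Limch1*, *Il4ra*, *Psapl1* and *Sorcs2*, no filter on low counts 23 and a replicate block 47. In edgeR it was 0 without WT unwounded replicate 2, where 101 of these genes were higher and 36 lower at an unadjusted P under 0.05, and 0 without WT wounded replicate 2, with 108 and 52. It was also 0 with at least 10 counts in every library, with 87 and 40, and with only the 4 WT libraries, with 90 and 41. For genes of unwounded-only regions the count was 0 in edgeR, with 92 higher and 49 lower at an unadjusted P under 0.05. It was 44 with the block, 12 with no filter, 1, *Flt1*, with DESeq2, and 5 without WT wounded replicate 1, *Lama3*, *Pdpn*, *Slc2a12*, *Tubb6* and *Vim*. *Limch1* and the other genes given for these settings were chosen after their values were seen.

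The WT unwounded libraries had 3.77 and 2.37 CPM of *Il24* and the wounded ones 9.25 and 14.9 CPM. Both wounded libraries stood above both unwounded ones, with a log2 fold change of 1.98 and an adjusted p of 0.221 in edgeR. The adjusted p of *Il24* was 0.0114 with no filter on low counts and 0.00913 with a replicate block. *Lama3*, which encodes a chain of laminin-332, had 356.7 and 344.8 in unwounded and 509.6 and 1127 in wounded libraries, with a log2 fold change of 1.22 and an adjusted p of 0.169. Without WT wounded replicate 1 these were 1.68 and 1.1e-04, and without WT wounded replicate 2 they were 0.54 and 0.729. *Lama3* also passed 0.05 with no filter (1.1e-09) and with the block (1.5e-08). It had 2 wounded-only regions, both at annotated starts, and an unwounded-only region in an intron, chr18:12359191-12359385, and was named after its values were seen, as was *Pmepa1*.

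Of the list of 15 genes, 8 were higher and 1 lower at an unadjusted P under 0.05, with a median log2 fold change of 0.68, beside the 3.18% and 1.67% over all genes. The list was fixed around the study's results, so it is not independent of these libraries. *Fscn1* had 54.2 and 95.5 CPM without a wound and 109.7 and 129.9 CPM with it. The groups did not overlap, and the log2 fold change was 0.68 with an adjusted p of 0.984. When 1 WT library was left out, the log2 fold change of *Fscn1* lay between 0.324, without WT unwounded replicate 1, and 1.147, without WT unwounded replicate 2. *Nrg1* had 7.16 and 5.31 in unwounded and 15.1 and 20.5 in wounded libraries, with a log2 fold change of 1.51 and an adjusted p of 0.522. *Cdh1* had 1332 and 1006 against 1457 and 1128, so that the groups overlapped. For *Ptk2b* the values were 28.8 and 47.9 against 47.6 and 75.6, which overlap as well, with an unadjusted P of 0.0198 and an adjusted p of 0.895. With a replicate block *Fscn1* (0.00147), *Nrg1* (0.00684) and *Ptk2b* (0.0231) had an adjusted p under 0.05, and *Nrg1* did with no filter (0.048).

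Some genes with unwounded-only regions had higher RNA values in both wounded libraries than in both unwounded ones. The share of all genes tested that did so was not counted. With 2 libraries against 2, an exact permutation test cannot go below 0.333. *Pdpn* had 2.68 and 4.79 CPM against 13.0 and 49.5 CPM, with a log2 fold change of 3.05 and an adjusted p of 0.203. *Tmsb10* had 54.7 and 39.0 against 62.1 and 90.1, with a log2 fold change of 0.70 and an adjusted p of 0.936. When 1 WT library was left out, its log2 fold change lay between 0.405 and 0.963. For *Bmpr1b* the values were 0.70 and 0 against 3.85 and 4.95, with an adjusted p of 0.545. *Adam12*, a metalloprotease gene, had 0 and 5 counts against 48 and 100, with an adjusted p of 0.578. None of the 4 passed the adjusted threshold in edgeR with all libraries. *Pdpn* passed without WT wounded replicate 1 (log2 fold change 3.71, adjusted p 0.00591), and without WT wounded replicate 2 it had 1.79 and 0.689. *Pdpn* also passed with no filter and with a replicate block, *Bmpr1b* with no filter (0.00723), and *Tmsb10* (0.0221) and *Adam12* (0.00845) with the block. *Krt17* had 2079 and 1592 CPM in unwounded and 2297 and 1824 CPM in wounded libraries, so that the groups overlapped. The regions of *Pdpn*, *Tmsb10*, *Bmpr1b*, *Adam12* and *Krt17* were in the full wounded list too, below the limit.

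Endothelial markers had larger sums in the wounded RNA-seq libraries, although CD31-positive cells had been sorted away. The 8 markers summed, as CPM of the total counts on genes, to 2.07 and 2.38 in unwounded WT cells and 27.0 and 13.4 in wounded ones, and 4 of the 7 tested were higher at an unadjusted P under 0.05. *Flt1*, the most abundant, had 5 and 4 counts in unwounded and 91 and 105 in wounded libraries. *Pecam1*, the gene of CD31, had 1 and 23 against 100 and 31, and *Cldn5* had 0 and 0 against 4 and 0. In bulk RNA, more cells of a type and more RNA in each cannot be told apart, and the part of such cells in the regions of *Erg*, *Kdr* and *Flt1* was not tested. Leukocyte markers summed to 8.72 and 16.1 in unwounded and 14.6 and 35.2 in wounded libraries, with *Cd74* the most abundant and *Cd3e* and *Ikzf1* at 0 in all WT libraries. Fibroblast markers summed to 28.7 and 15.0 against 19.6 and 47.8, with *Col1a1* the most abundant. Melanocyte markers summed to 41.1 and 39.4 against 38.0 and 26.7, with *Mitf* the most abundant and *Sox10* at 0. Of the 6 tested, 2 were higher and 1, *Mitf*, lower at an unadjusted P under 0.05, and the median log2 fold change was 0.65. *Dct* had 12 and 4 counts in unwounded and 79 and 37 in wounded libraries, and *Tyr* had 0 and 2 against 40 and 25. *Kit* had 78 and 45 against 52 and 30, and *Tyrp1* had 0 and 10 against 10 and 5. The part of melanocytes in the regions of *Dct* and *Tyrp1* was not tested.

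The gene lists can be set beside their RNA, against 3.18% higher and 1.67% lower over all genes tested. Of 22 migration and actin genes 8 were higher and none lower at an unadjusted P under 0.05, with a median log2 fold change of 0.37, although 3 had wounded-only and 8 unwounded-only regions. Integrin and basement membrane genes had 8 of 17 higher and none lower, and matrix protease genes 6 of 15 and none. Of 15 tested genes of the cornified envelope and lipid barrier, 4 were lower and none higher, while 6 of the 16 listed had wounded-only regions. *Abca12* had 290.6 and 293.4 CPM in unwounded and 214.8 and 217.6 CPM in wounded libraries. Its log2 fold change was −0.43 with an adjusted p of 0.843 in edgeR. With a replicate block in edgeR its adjusted p was 0.048, which passed. EGF and TGF-β genes, with wounded-only regions in 10 of 19, had 2 higher and none lower. Stress keratins had 3 of 4 higher and none lower, and suprabasal markers had 4 of 7 lower and none higher. Hair follicle markers had 3 of 8 lower and none higher, *Lhx2*, *Cd34* and *Krt79*. Junction genes had 2 of 20 higher and none lower, and basal markers 1 of 8 lower and none higher. Of 18 tested epidermal transcription factor genes 1 was higher and 1 lower, and of 18 inflammation and antimicrobial genes 2 and 2. No gene of the AP-1, Hippo or housekeeping lists passed an unadjusted P under 0.05 in either direction.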

How the data were processed

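RNA-seq tables deposited by the authors hold whole-number counts per gene symbol for 7 libraries; per the study's methods kallisto was used with mm10, and the step that made the counts is not stated. For ATAC-seq the authors trimmed reads, aligned them with bowtie2 and called broad peaks with MACS2 without a control library. Each deposited peak has a fold enrichment over the local background and p- and q-values on the −log10 scale. A deposited score per peak was not used. The files give no ATAC-seq read depth by library, and the study's methods state only a minimum for all samples.

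Lists were ranked by −log10 p, with ties broken by fold enrichment and then position. Overlap meant at least 1 base in common. Places and genes came from the basic GENCODE M21 annotation and sequence from GRCm38.p6, read with pysam 0.24.0, pandas 2.3.3 and numpy 2.4.6 in Python 3.11.15. A place was promoter, exon, intron or intergenic, in that order. Promoter sequences for comparison were those of RefSeq for the same assembly. All genes of the lists were in the annotation, and 2435 of 2561 genes of wounded-only and 2778 of 2972 of unwounded-only regions were in the count tables.

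Counts were normalized by TMM and filtered by filterByExpr, and 1 quasi-likelihood fit of all 7 libraries in edgeR 4.0.16 (R 4.3.3) gave WT wounded against WT unwounded, two-sided, with Benjamini-Hochberg adjustment over 14045 genes. DESeq2 1.42.0 was an alternative. With 2 libraries against 2, an exact permutation test cannot go below 0.333. Counting of overlaps and the RNA test were tested on simulated data.

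Named genes were a list of 15 (in the study's text except *Nrg1*, *Flt1*, *Tmsb10* and *Ptk2b*), the 10 strongest regions and the 5 genes with the most regions in each direction, and for each gene list the gene of its strongest region in each direction. Some genes of the lists are counted but not reported here by name. The members and the lists were chosen with earlier results of these data known. Alternatives covered the ranking, list length, overlap, promoter and window sizes, and for RNA the normalization, filter, tool, replicate block and leaving out each WT library.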

Additional observations from a re-analysis of the deposited data

How the results depend on the processing

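The order of the 2 directions in promoter share and AP-1 share, higher in unwounded-only and in wounded-only regions respectively, held in the alternatives run, except that with the full lists the promoter share was lower in unwounded-only regions. With the full lists there were 26478 wounded-only and 319 unwounded-only regions, the latter with 19.1% at promoters, and AP-1 shares were 29.4% and 20.1%. With the 5000 strongest regions of each list the counts were 1789 and 1788, the promoter shares 35.4% and 51.7% and the AP-1 shares 35.1% and 24.2%. At the same covered length there were 1379 and 5359 regions. Ranking by fold enrichment gave a promoter share of 49.5% for unwounded-only regions, and a −log10 q of at least 2 gave 26.8% for wounded-only regions. Promoters of 500 bases gave 20.97% and 44.1%, and of 2500 bases 27.4% and 52.0%. AP-1 shares in windows of 200 bases were 31.4% and 17.3%, and over whole wounded-only regions 44.0%. Inside the regions only, an alternative added after seeing the data, the AP-1 share of unwounded-only windows was 19.9%. Leaving out regions mostly of repeat-masked bases, an alternative chosen after seeing the data, gave a promoter share of 49.6% for unwounded-only regions. The cause of these shifts is the construction of each alternative or was not tested.

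For RNA, a replicate block on the 4 WT libraries gave 201 higher and 100 lower genes near wounded-only and 183 and 110 near unwounded-only regions, with 772 higher and 501 lower of all 12674 genes in that fit. The labels give the libraries only shared numbers, and over same-numbered libraries the deviations had a correlation of 0.154. Genes with the region at the promoter numbered 22 and 11, and 44 and 30. Leaving out 1 WT library, so that the lone library is assumed to vary like the other groups, gave 89 to 116 and 36 to 75 near wounded-only, and 78 to 120 and 31 to 65 near unwounded-only regions. Under the other settings these counts near regions stayed within 1.5 times. The count of genes at an adjusted p under 0.05, 4 as reported, was examined under alternatives added after seeing the data. It was 96 without a filter, 24 with DESeq2, 183 with the replicate block, and 0 to 29 when 1 WT library was left out. In edgeR it was 0 with at least 10 counts in every library (335 higher and 199 lower at an unadjusted P under 0.05) and 0 with only the 4 WT libraries (384 and 215). Among genes of wounded-only regions that count, 1 as reported, was 23 without a filter, 5 with DESeq2, 47 with the replicate block, and 0 to 10 when 1 WT library was left out. In edgeR it was 0 with at least 10 counts in every library (87 higher and 40 lower) and 0 with only the 4 WT libraries (90 and 41). Among genes of unwounded-only regions it was 0 in edgeR as reported (92 higher and 49 lower), 12 without a filter, 1 with DESeq2, 44 with the replicate block, and 0 to 5 when 1 WT library was left out. The ATAC-seq lists have no replicates, and since the depth of each library is not given, their comparisons are not scaled by depth.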

Other observations

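In 2 stretches, chosen after their values were seen, unwounded-only regions lay close together. Around *C130026I21Rik*, *A530032D15Rik* and *Sp140* on chromosome 1 there were 23 unwounded-only regions and no wounded-only region, and 9 of the 23 met a region of the full wounded list. Around *Gm17019*, *Gm10354*, *Gm21190* and *4930572O03Rik* on chromosome 5 there were 42 unwounded-only and 2 wounded-only regions, and 29 of the 42 met a region of the full wounded list. They hold 23 and 42 of the 3475 unwounded-only regions. Reads from sequence present in several copies can be placed at more than 1 copy, and the part of such sequence in these stretches was not tested.

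The strongest shared region, chr9:35305182-35305652 in an intron of *Rpusd4*, had a fold enrichment of 17.7 and a −log10 p of 158.5 in the wounded library, far above the 23.1 of the strongest wounded-only region. It was also listed in both libraries labelled *Grhl3*-cKO. The lists were not filtered here for places that draw excess reads, and their part in the strongest shared regions was not tested. No wounded-only region lay on chromosome Y and 4 unwounded-only regions did. Chromosome 11 held 3.62% of wounded-only and 5.96% of unwounded-only regions, and chromosome 13 held 6.13% and 4.43%. Of shared regions as listed in the wounded library, 4.17% lay on chromosome 11 and 5.76% on chromosome 13.

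*Xist*, which is transcribed from the inactive X chromosome of females, had counts of 4 and 3 without a wound and 32 and 25 with it in WT, and of 14854 in the unwounded *Grhl3*-cKO library. The Y-linked *Ddx3y* had counts of 1601 and 1740, then 1843 and 1368, in the same WT libraries, and of 0 in that last one.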
